A study of Mus musculus with 6 samples.

Results

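Spliceosome and splicing factor genes were compared between CD93-positive (CD93pos) and CD93-negative (CD93neg) haematopoietic stem cells (HSCs) of the mouse. The members were taken by name: SR proteins (Srsf with a number), hnRNP proteins (Hnrnp), core snRNP proteins (Snrp), subunits of the SF3a and SF3b complexes (Sf3a, Sf3b), PRPF proteins (Prpf with a number), the U2 auxiliary factor (U2af1, U2af2) and Rsrp1, without names ending in -ps. This gave 70 of the 47937 deposited genes. They were 20 hnRNP, 13 snRNP, 13 PRPF, 12 SR and 9 SF3 genes, 2 U2 auxiliary factor genes and Rsrp1. Of these, 68 had a mean normalized count of at least 10 and were tested, among 11805 tested genes in all. The 2 left out were Srsf12, with 12 reads in CD93pos replicate 1 and none elsewhere, and a second identifier named Srsf1 with no read in any library. Snrpert, 1 of the 68, is annotated as a processed pseudogene.

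Both groups were untreated HSCs of C57BL/6 mice, wild type, 8 weeks old and stated to be male. Marrow from pooled femora and tibiae was depleted of lineage-positive cells, gated as Kit and Sca-1 positive, CD34, Flt3 and CD48 negative and Slam1 positive, and divided by the surface receptor CD93. Polyadenylated RNA of 3 libraries per group was sequenced after low-input preparation. The replicates are labelled biological, and the mice behind each are not named.

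Splicing removes introns from pre-mRNA. The U1 and U2 small nuclear ribonucleoproteins (snRNPs), each built on a ring of Sm proteins, recognise the 5′ splice site and the branch point. The tri-snRNP then joins, and PRPF proteins help to bring about the catalytic steps. SR proteins mostly promote and hnRNP proteins often repress the use of an exon. SF3B1, SRSF2 and U2AF1 are recurrently mutated in human myeloid neoplasms that arise from HSCs, which is one reason these genes are followed in stem cells.

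The CD93neg libraries were shallow and unlike each other. Reads assigned to genes numbered 5794528 to 9509304 in CD93pos and 2832653 to 4614396 in CD93neg. CD93neg replicate 1, the shallowest, had no read for 71.0% of the tested genes, while the share was 26.4% and 16.0% in CD93neg replicates 2 and 3 and 2.10% to 13.5% in CD93pos. All 11 HSC markers were read in 5 libraries, and 5 of the 11 were unread in CD93neg replicate 1. Summed, the 11 made 3050, 3025 and 2288 CPM (reads scaled to 1e+06 assigned reads) in CD93pos. In CD93neg replicates 1, 2 and 3 the sums were 6223, 4596 and 3344 CPM, all above the CD93pos sums. The 10 neutrophil markers were all unread in CD93neg replicate 1, a sum of 0. They summed to 2.93 to 275 CPM in CD93pos, and to 12457 and 8682 CPM in CD93neg replicates 2 and 3. The 8 B lineage markers summed to 11111 and 34016 CPM in those 2 libraries, to 73.0 to 97.6 in CD93pos and to 0.353 in CD93neg replicate 1. The 6 mast cell and basophil markers lay the other way, at 94.7 to 1057 CPM in CD93pos and 0, 27.5 and 0 in CD93neg. Megakaryocyte markers (533 to 1271 CPM in CD93pos, 257 to 408 in CD93neg) and erythroid markers (308 to 627 and 6.5 to 228) were also higher in CD93pos, and dendritic cell markers were lower, at 242 to 386 CPM against 2773, 498 and 713 in CD93neg replicates 1, 2 and 3. CD93neg replicates 2 and 3 had 2419 and 1143 Xist reads and no read of 4 Y-linked genes, which goes against their male label. CD93neg replicate 1 had no Xist read and 1 Y-linked read. Reads of Cd93 itself, not scaled for depth, were 906, 1001 and 550 for CD93pos against 0, 419 and 38 for CD93neg. CD93neg replicate 2 had its 419 among 4614396 assigned reads and CD93pos replicate 3 its 550 among 7152750. The share was larger in CD93neg replicate 2, so the groups overlapped for Cd93. The part of these other-cell markers, of sex and of depth in the splicing results was not tested, and values are therefore given by library and, where it matters, without CD93neg replicate 1. In bulk libraries, fewer cells of a type and less RNA per cell cannot be told apart.

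As a group, splicing genes took a larger share of reads in CD93pos than in CD93neg HSCs, while Rsrp1 took a smaller one. The 70 members summed to 19900, 20112 and 19057 CPM in CD93pos and to 11194, 18692 and 15123 CPM in CD93neg. The 3 CD93pos libraries lay close together and above all 3 CD93neg libraries. The means were 19690 ± 558 and 15003 ± 3750 CPM (SD, n = 3 each), a ratio of 1.31, which was 1.16 without CD93neg replicate 1 and 1.76 with that library as the only CD93neg one. With Rsrp1 left out of the sum the ratio was 1.52, and 1.39 without CD93neg replicate 1.

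No single splicing gene passed the test. limma, fitted on log2(normalized count + 1) over all tested genes with the Benjamini-Hochberg adjustment, called 0 of 68 members at an adjusted p under 0.05, as it called 0 of all 11805 genes (0.0% higher and 0.0% lower). The smallest adjusted p among members was 0.0644, that of Snrpn, which met the filter for testing through CD93pos alone. At an unadjusted p under 0.05, 4 members were higher in CD93pos (5.88% of 68, against 11.8% of all tested genes) and 1 was lower (1.47% against 0.381%). edgeR on the recovered reads called 0 members with 3 at an unadjusted p under 0.05, and DESeq2 called 1, Snrpn. In the authors' deposited table, adjusted p under 0.05 was reached by 5.58% of 11813 genes in the higher direction and 0.389% in the lower, and by 1 of the 63 members that have an adjusted p there, again Snrpn.

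The direction of the members is given beside that of all tested genes, most of which also had higher values in CD93pos. The log2 fold change, CD93pos over CD93neg on the log2(normalized count + 1) scale, was positive for 60 of 68 members (88.2%) and for 79.9% of all tested genes. Its median was 2.56 for members and 2.36 for all genes, and without CD93neg replicate 1 it was 0.52 and 0.43. Quantile normalization, which forces equal distributions on the libraries, gave medians of 0.99 and 0.02. Normalized counts of the groups did not overlap, with CD93pos higher, for 16 members (23.5%, against 18.3% of all tested genes) and, with CD93pos lower, for 1 member (1.47%, against 1.92%). Without CD93neg replicate 1 these counts were 24 higher (35.3%, against 21.8%) and 2 lower (2.94%, against 13.8%).

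**Figure D1:**
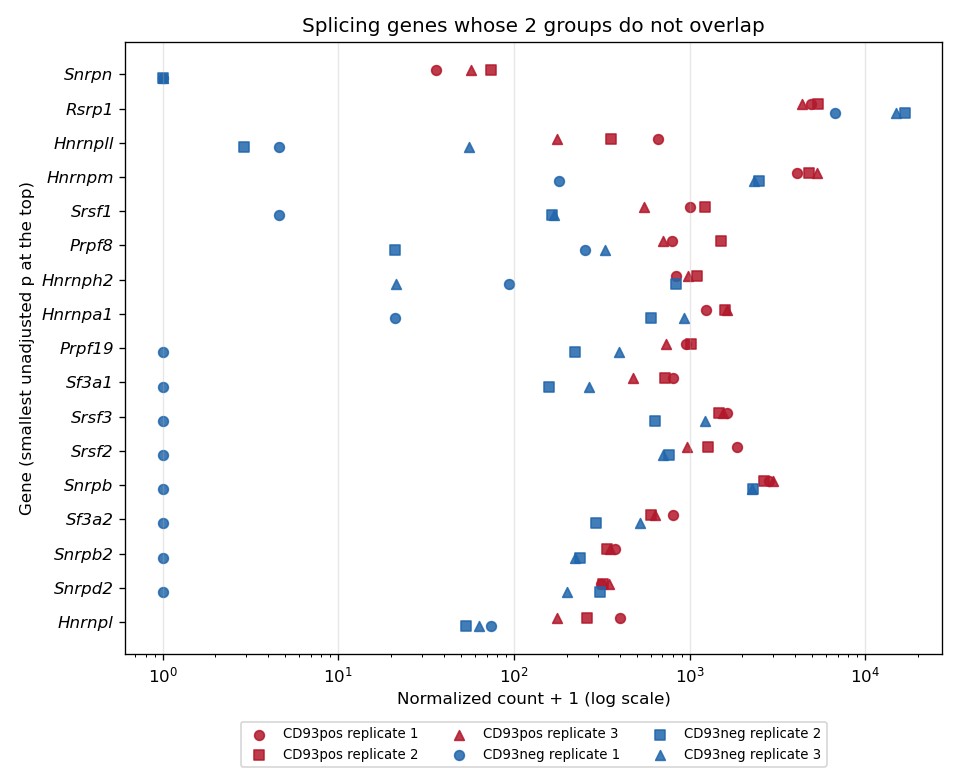
Normalized count + 1 (log axis) of the 17 splicing genes whose CD93pos (red) and CD93neg (blue) libraries do not overlap, 1 point per library. 16 genes lie higher in all 3 CD93pos libraries and Rsrp1 lies lower; Snrpn has no read in CD93neg.

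Upstream windows are shown for 4 genes on which the description below turns: Snrpn (unread in CD93neg), Rsrp1 (the only member lower without overlap), and Prpf38a and Srsf1 (low in CD93neg). Each sequence is the strand of the gene, from RefSeq on GRCm38.p6, and ends at the base before an annotated start. Capitals mark the CCAAT box (CCAAT) and the GC box (GGGCGG), read on both strands.

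Snrpn, chr7:60005200-60005449, minus strand: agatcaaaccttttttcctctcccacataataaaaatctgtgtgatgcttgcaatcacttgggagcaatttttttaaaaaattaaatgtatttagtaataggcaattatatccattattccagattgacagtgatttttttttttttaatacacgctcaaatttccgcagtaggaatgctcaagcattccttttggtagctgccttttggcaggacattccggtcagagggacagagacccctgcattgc

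Rsrp1, chr4:134923375-134923591, plus strand: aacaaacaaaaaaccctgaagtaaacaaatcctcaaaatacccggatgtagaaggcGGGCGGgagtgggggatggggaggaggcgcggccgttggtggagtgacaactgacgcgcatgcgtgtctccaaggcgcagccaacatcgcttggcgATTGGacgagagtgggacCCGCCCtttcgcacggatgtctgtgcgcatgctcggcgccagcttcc

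Prpf38a, chr4:108579337-108579586, minus strand: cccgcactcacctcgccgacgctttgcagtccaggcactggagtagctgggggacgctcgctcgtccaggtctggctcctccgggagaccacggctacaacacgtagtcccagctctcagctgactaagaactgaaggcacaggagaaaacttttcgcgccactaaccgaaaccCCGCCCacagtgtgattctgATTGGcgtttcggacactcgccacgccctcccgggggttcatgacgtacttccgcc

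Srsf1, chr11:88047123-88047372, plus strand: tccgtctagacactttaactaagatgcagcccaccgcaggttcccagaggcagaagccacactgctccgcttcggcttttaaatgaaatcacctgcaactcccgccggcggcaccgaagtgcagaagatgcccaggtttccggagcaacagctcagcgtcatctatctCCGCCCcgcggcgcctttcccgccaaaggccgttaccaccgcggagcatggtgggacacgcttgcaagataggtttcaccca

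The Snrpn window, 1 of 4 listed for that gene, holds 3 CpG and neither box. The other 3 hold 2 to 4 CpG, and 1 of them, at chr7:60450178-60450427, has 2 CCAAT boxes. The windows of Rsrp1, Prpf38a and Srsf1 hold 19, 21 and 19 CpG. Rsrp1 has 1 CCAAT box and 2 GC boxes, Prpf38a 1 of each, and Srsf1 1 GC box. Over the promoter table as a whole, 59 member symbols had 80 windows running from 250 bases before to 50 after a start, with a median of 25 CpG, against 7 over all 32851 windows. The GC box was found in 65.0% of the member windows and 35.7% of all windows, and the CCAAT box in 48.8% and 37.4%. The letters CCGGAAG, the core bound by ETS factors, were found in 31.2% and 8.86%, TGACGT (the cAMP response element core) in 23.8% and 7.51%, and TATAAA in 8.75% and 13.6%, each read on both strands. Several windows of 1 gene overlap, so the shares describe windows, not independent genes.

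Among the core snRNP proteins, Snrpn was the 1 gene with no read in CD93neg. It encodes SmN, a form of the Sm ring protein SmB, and is an imprinted gene expressed from the paternal allele (GRCm38 chromosome 7, 59982495 to 60140219). The CD93pos libraries held 77, 92 and 91 reads of it and the CD93neg libraries none, or 35.2, 72.9 and 56.0 normalized counts against 0 in each. CPM over the group were at least 40.3-fold higher in CD93pos, taking 3 reads over the CD93neg group as the floor. Its log2 fold change of 5.74 (SE 1.3) missed the threshold (limma adjusted p = 0.0644), and was 1.35 with quantile normalization. The authors' deposited table gives a log2 fold change of 7.74 with an SE of 2.30 and an adjusted p of 0.0191. Among all tested genes 6.68% had no read in any CD93neg library, against 1.47% of members, and Snrpn was the 1 member. Its exons share 216 bases with Snurf and 589 with Gm38393 on the same strand, so reads there could be split between them.

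Of the 13 snRNP genes, Snrpn included, 4 were higher in CD93pos without overlap and 0 lower, against 18.3% and 1.92% of all tested genes. Snrpb, which encodes SmB, had 2842, 2659 and 2966 normalized counts in CD93pos and 0, 2302 and 2254 in CD93neg. All 3 CD93pos values were higher, and without CD93neg replicate 1 the ratio of means was 1.24. Snrpd2, an Sm ring subunit, had 314, 320 and 345 against 0, 310 and 199, and Snrpb2, the U2 protein B″, had 374, 336 and 353 against 0, 236 and 222. Snrpd3, another Sm ring subunit, had 655, 631 and 692 against 1322, 344 and 155. It was highest in CD93neg replicate 1, and without that library higher in CD93pos without overlap, with a ratio of 2.64. Snrpd2, Snrpb2 and Snrpd3 were named after their values were seen. Snrpc, the U1 protein that helps to hold the 5′ splice site, had 262, 172 and 334 against 2315, 134 and 225, so that 1 CD93neg library set its mean. Snrpe, also of the Sm ring, was the 1 other gene lower without overlap when CD93neg replicate 1 was left out, at 374, 338 and 342 against 375 and 380, a ratio of 0.93. It was named after its values were seen. The 13 snRNP genes had a median log2 fold change of 2.01, and 0.01 without CD93neg replicate 1. Summed, they made 1803, 1521 and 1933 CPM in CD93pos and 948, 1617 and 1349 in CD93neg, and the groups overlapped.

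The SF3 complex, which binds the branch point with the U2 snRNP, had a larger summed share in CD93pos, at 3004, 3171 and 3072 CPM against 760, 2293 and 2148. The groups did not overlap, with a ratio of 1.78, or 1.39 without CD93neg replicate 1. Sf3b1, the subunit that holds the branch point helix, had 3522, 5640 and 4328 normalized counts in CD93pos and 5.45, 4150 and 2577 in CD93neg. CD93neg replicate 2 lay above CD93pos replicate 1, so the groups overlapped. For Sf3b1 the log2 fold change was 3.43 (SE 2.18; limma adjusted p = 0.547), falling to 0.43 without CD93neg replicate 1. Sf3a1, a subunit of SF3a, did not overlap, at 805, 721 and 476 against 0, 157 and 266. Of the 9 SF3 genes, 7 had no read in CD93neg replicate 1, against 71.0% of all tested genes.

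The U2 auxiliary factor, which reads the 3′ splice site, did not separate the groups. U2af1 had 367, 215 and 593 normalized counts in CD93pos and 247, 670 and 425 in CD93neg, and its log2 fold change of -0.20 (SE 1.33) was far from the threshold (limma adjusted p = 0.939) and turned sign with TMM scaling. U2af2 had 435, 160 and 256 against 0, 351 and 330. Without CD93neg replicate 1 its log2 fold change moved from 2.43 to -0.38.

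PRPF proteins, which act with the U4/U6 and U5 snRNPs, took 1846, 1743 and 1602 CPM against 2279, 1682 and 1228, with means of 1730 ± 123 and 1730 ± 527 (SD, n = 3 each) and overlapping groups. Single genes went apart. Prpf8, the U5 protein at the heart of the catalytic centre, had 794, 1516 and 708 normalized counts in CD93pos and 254, 19.98 and 328 in CD93neg. Its groups did not overlap, and the ratio was 5.01, and 5.78 without CD93neg replicate 1; its limma adjusted p was 0.49. Prpf38a, which is needed to activate the spliceosome, had 480, 116 and 594 against 0, 0 and 141, with 2 CD93neg libraries unread and 1 CD93neg library above 1 CD93pos library. For Prpf38a the log2 fold change was 5.95 (SE 2.33; limma adjusted p = 0.34). Prpf19, a ubiquitin ligase of the catalytic step, had 953, 1012 and 732 against 0, 223 and 397.

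SR proteins were higher in CD93pos in summed share, at 4089, 3937 and 3544 CPM against 1284, 3215 and 2383. The groups did not overlap, with a ratio of 1.68, and 1.38 without CD93neg replicate 1. Srsf1, the founding SR protein, had 1005, 1225 and 550 normalized counts in CD93pos and 3.63, 164 and 169 in CD93neg. All 3 CD93pos libraries were higher; the ratio of means was 8.27, and 5.57 without CD93neg replicate 1. For Srsf1 the log2 fold change was 4.12 (SE 2.04; limma adjusted p = 0.453). Srsf2 had 1866, 1270 and 972 against 0, 767 and 706, also without overlap, and the log2 fold change was 4.02 (SE 2.63; limma adjusted p = 0.557), or 0.84 without CD93neg replicate 1. The exons of Srsf2 share 460 bases with Mettl23 and 288 with Mfsd11 on the other strand. Srsf7, the most abundant SR gene per kb of exon, had 4925, 4780 and 5655 against 2763, 5729 and 2970, and the groups overlapped. Srsf10, known for its role in splicing repression, had 991, 1707 and 511 against 0, 99.9 and 574, and Srsf5 had 3322, 3871 and 2056 against 1855, 3010 and 1927.

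Of the 20 hnRNP genes, the largest family, 5 were higher in CD93pos without overlap, beside 4 of 13 snRNP and 3 of 10 tested SR genes and 18.3% of all tested genes. Without CD93neg replicate 1 it was 10 of 20, against 21.8% of all. Their summed share was 7840, 8479 and 7721 CPM in CD93pos and 4563, 5820 and 4669 in CD93neg, a ratio of 1.60, and of 1.53 without CD93neg replicate 1. Hnrnpll, a regulator of CD45 splicing in lymphocytes, had 664, 355 and 175 normalized counts in CD93pos and 3.63, 1.90 and 54.7 in CD93neg. Every CD93pos library was higher, with a ratio of means of 19.8 (14.1 without CD93neg replicate 1) and 5.25 as log2 fold change (SE 1.93; limma adjusted p = 0.297). Hnrnpm, which regulates alternative exons, had 4100, 4807 and 5322 against 180, 2477 and 2327, a ratio of 2.85 (1.97 without CD93neg replicate 1), and a limma adjusted p of 0.397. Its exons share 1169 bases with March2 on the same strand. Hnrnpa1, an antagonist of SR proteins at many exons, had 1242, 1588 and 1625 against 19.97, 601 and 925. Hnrnph2 had 839, 1105 and 981 against 92.6, 835 and 20.3, so that 1 CD93neg library came close to CD93pos. Hnrnpl, which also acts on CD45 exons and was named after its values were seen, had 400, 260 and 175 against 72.6, 52.3 and 62.5, and was the 1 non-overlapping hnRNP gene with an even level in CD93neg.

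Other abundant hnRNP genes overlapped between the groups. Hnrnpk, which binds poly(C) RNA, had 9437, 11323 and 8650 normalized counts in CD93pos and 11380, 4510 and 5852 in CD93neg. CD93neg replicate 1 held the highest of the 6 values and the other 2 CD93neg libraries the lowest. Hnrnpa2b1 had 6078, 6079 and 5733 against 320, 7139 and 4914. Hnrnpc, which packages nascent transcripts, had 2039, 2636 and 2733 against 5226, 2538 and 1136, with a log2 fold change of -0.01 that turned positive with TMM scaling and quantile normalization.

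Rsrp1, which encodes an arginine- and serine-rich protein, was the 1 member lower in CD93pos without overlap (chromosome 4, 134923592 to 134927671). It had 4928, 5418 and 4369 normalized counts in CD93pos and 6748, 16817 and 14953 in CD93neg, or 4905 ± 525 and 12839 ± 5357 (SD, n = 3 each). All 3 CD93neg libraries were higher, and CD93neg replicates 2 and 3 much more so. Its log2 fold change of -1.29 (SE 0.31) missed the threshold (limma adjusted p = 0.081), and the authors' deposited table gives -1.39 with an adjusted p of 0.99995. The limma value was -1.70 without CD93neg replicate 1, -1.03 with TMM scaling and -0.60 with quantile normalization. CD93neg replicates 2 and 3, which had the highest Rsrp1 levels, are also the libraries with neutrophil and B lineage reads, and the part of those cells in its level was not tested. Per kb of exon, Rsrp1 had 1465 normalized counts in CD93pos, close to Hnrnpk (1516), Srsf7 (1442) and Snrpb (1428). In CD93neg it had 3834, above the next member, Hnrnpk, at 1121.

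**Figure D2:**
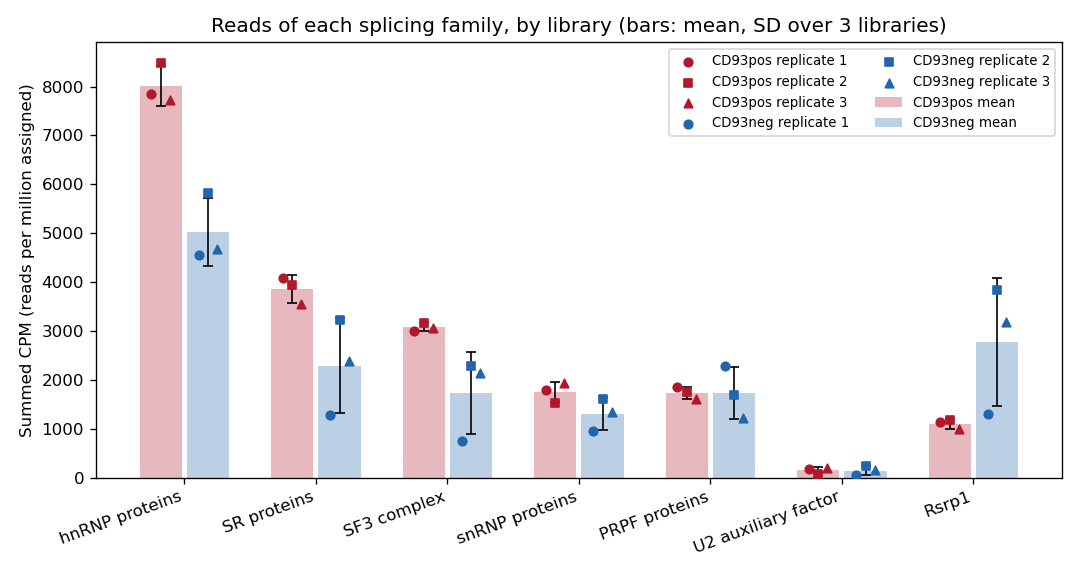
Summed CPM of each splicing family, with bars for the mean, error bars for the SD over 3 libraries and 1 point per library. The hnRNP, SR and SF3 families lie higher in all 3 CD93pos libraries and Rsrp1 lies lower; the snRNP, PRPF and U2 auxiliary factor families overlap.

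In CD93neg replicate 1 the splicing genes ranged from unread to the highest level of any library. Of the 68 tested members, 29 had no read there (42.6%, against 71.0% of all tested genes), 7 had 1 to 10 reads and 32 had more, among them Srsf7 and Srsf5 at 2763 and 1855 normalized counts. Sf3b1 and Srsf1 were among the 7, with 5.45 and 3.63 normalized counts. In the same library 14 members had the highest value of all 6 libraries (20.6%, against 13.0% of all tested genes). In all, 10 members lay over 3-fold above the mean of CD93neg replicates 2 and 3, such as Snrpc and Snrpert. Every tested member was read in all 3 CD93pos libraries, whereas 3 were unread in CD93neg replicate 2 and 2 in CD93neg replicate 3. Abundance went with being read: of the genes whose mean in the other 5 libraries lay from 10 to 100 normalized counts, 82.6% were unread there, with 2 of 2 members. From 100 to 300 the share was 75.2% (7 of 14 members). From 300 to 1000 the share was 63.4% (12 of 28 members), from 1000 to 3000 it was 34.7% (8 of 17), and at 3000 or more it was 13.7% (0 of 6). The member reads were also more concentrated, since 5 genes made up 55.4% of them in CD93neg replicate 1, 46.7% and 45.0% in CD93neg replicates 2 and 3, and 34.1% to 36.0% in CD93pos.

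**Figure D3:**
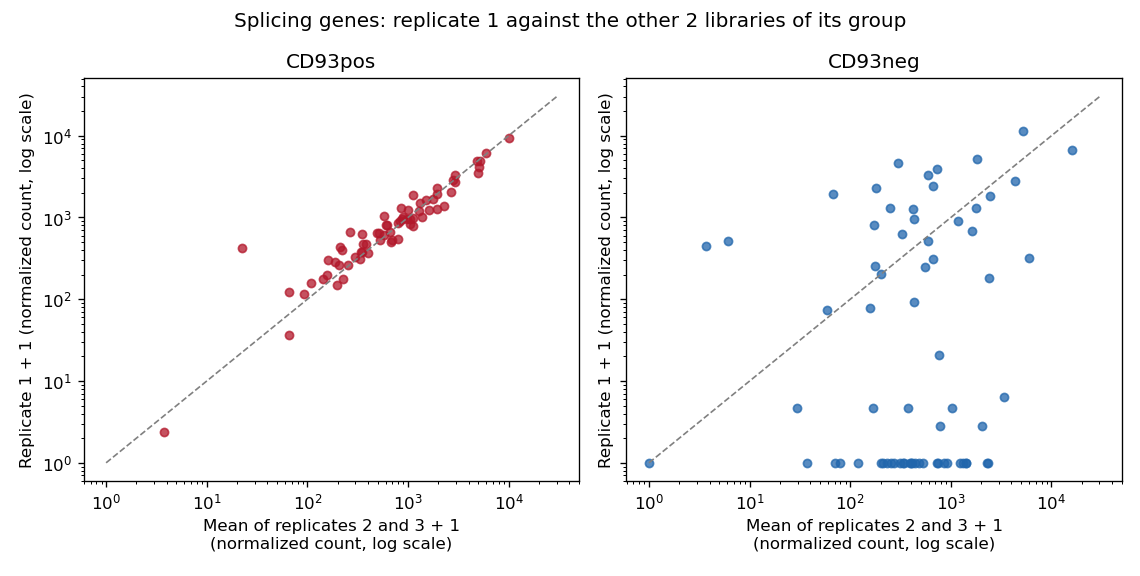
Each point is 1 of the 68 tested splicing genes, with the normalized count + 1 of replicate 1 (y, log axis) against the mean of replicates 2 and 3 of the same group (x, log axis); the dashed line marks equal values. CD93pos genes follow the line, and in CD93neg 29 genes lie at the bottom, unread in replicate 1.

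Within CD93pos the splicing genes were steady, with a median coefficient of variation of 23.4% over the 3 libraries, against 43.3% for all tested genes. Their median mean normalized count was 611, against 158 for all genes, and the level was not matched between these 2 values.

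**Figure D4:**
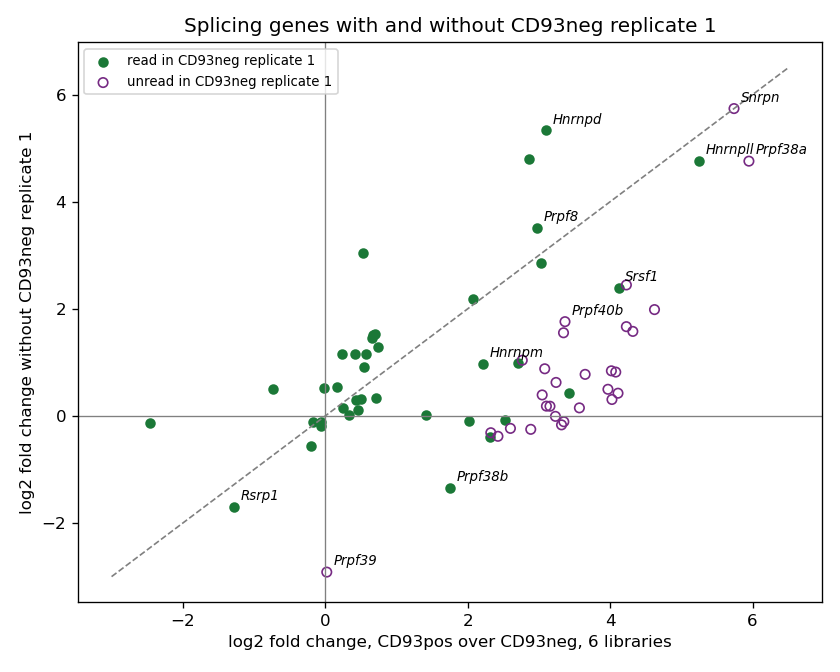
Log2 fold change (CD93pos over CD93neg) of the 68 tested splicing genes over all 6 libraries (x) and without CD93neg replicate 1 (y); open circles are genes unread in that library and the dashed line marks equal values. The median moves from 2.56 to 0.52, while Snrpn, Hnrnpll and Prpf38a stay at 4.76 or more and Rsrp1 stays below 0.

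Without CD93neg replicate 1, the mean of CD93pos was higher than that of CD93neg for 44 of the 67 members with a ratio and lower for 23, with a median ratio of 1.25. It was over 2-fold higher for 17 members. Such ratios were not counted over all tested genes, so these counts have no background. Without CD93neg replicate 1 the median log2 fold change was 0.43 for all tested genes, beside 0.52 for members. The largest ratios were 41.1 for Hnrnpd and 14.8 for Hnrnpab, both named after their values were seen. Hnrnpd had 178, 300 and 146 normalized counts in CD93pos and 512, 8.56 and 1.56 in CD93neg. Hnrnpab had 1289, 989 and 697 against 1913, 8.56 and 125, so both were highest in CD93neg replicate 1. The CD93neg mean was over 2-fold higher for 4, which were Rsrp1, Prpf38b, Prpf39 and Prpf40b. The last 3 were named after their values were seen. Prpf39 had 426, 22.2 and 20.3 normalized counts in CD93pos and 812 and 247 in CD93neg replicates 2 and 3. Prpf40b had 115, 58.6 and 125 in CD93pos and 794 and 0 in the same CD93neg libraries, so that 1 library made its CD93neg mean. For Prpf40b the log2 fold change without CD93neg replicate 1 was 1.76, the other direction.

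The other genes of the splicing pathway were taken from 10 lists of 135 genes, of which 134 were tested. limma called 0 of them, and 104 had a positive fold change. The groups did not overlap for 29 higher genes (21.6%, against 18.3% of all tested genes) and 2 lower ones (1.49%, against 1.92%). Without CD93neg replicate 1 these were 44 (32.8%, against 21.8%) and 15 (11.2%, against 13.8%).

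The Prp19 complex and catalytic step list had 7 of 21 genes higher without overlap, against 18.3% of all tested genes. Its median log2 fold change was 3.34, and 1.18 without CD93neg replicate 1. In that library 14 of the 21 were unread, against 71.0% of all tested genes. Cdc40, a second-step factor, had 647, 663 and 210 normalized counts in CD93pos and 0, 0 and 111 in CD93neg. Among 10 further U1, U5 and tri-snRNP proteins 3 were higher without overlap, against 18.3% of all tested genes. Without CD93neg replicate 1 there were 5 higher and 1 lower, against 21.8% and 13.8% of all tested genes. The 10 included Sart1, a tri-snRNP protein, at 397, 515 and 233 against 0, 102 and 10.9. Among 17 branch point and early assembly factors 4 were higher without overlap, against 18.3% of all tested genes. Without CD93neg replicate 1 there were 5 higher and 2 lower of these 17, against 21.8% and 13.8% of all. U2surp, a U2-associated protein, had 1578, 3150 and 1677 against 686, 789 and 594. U2surp was read in every library and its CD93neg values lay close together, with a ratio of 3.10 and a limma adjusted p of 0.361.

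Of 27 other splicing regulators 8 were higher without overlap, against 18.3% of all tested genes. Without CD93neg replicate 1 there were 13 higher and 1 lower, against 21.8% and 13.8% of all. Mbnl2, a muscleblind protein, had 942, 1373 and 1015 against 0, 654 and 40.6, and Raly, an hnRNP-like protein, had 2592, 2351 and 2601 against 3.63, 1545 and 1263. SR-related proteins had a median log2 fold change of 0.31, and 0.17 without CD93neg replicate 1. In that library 3 of the 17 were unread, against 71.0% of all tested genes. Without overlap, 3 were higher and 1 was lower, against 18.3% and 1.92% of all. The lower one was Pnisr, at 955, 1384 and 1176 against 5284, 1810 and 1754. Tra2b, an SR-like exon activator, had 2011, 3280 and 2874 against 1.82, 1240 and 1205.

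The exon junction complex, which marks spliced junctions, had 1 of 5 genes higher without overlap, against 18.3% of all tested genes. That gene was Magohb, at 105, 143 and 101 against 0, 27.6 and 3.13. None of the 7 SR protein kinases was without overlap. Their median log2 fold change turned from 2.24 to -0.50 without CD93neg replicate 1, and Clk4 had 841, 1163 and 726 against 1.82, 1647 and 961. The 7 Sm-like genes of U6 turned from a median of 1.79 to -0.25 in the same way. They had 1 of 7 higher without overlap, against 18.3% of all tested genes. It was Lsm6, at 443, 613 and 403 against 0, 303 and 205.

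In the minor spliceosome list, 7 of 8 genes were unread in CD93neg replicate 1, against 71.0% of all tested genes. Without that library 0 genes were higher and 3 lower without overlap, against 21.8% and 13.8% of all. Its removal turned the median log2 fold change of the list from 2.43 to -0.34. Over all 6 libraries, Snrnp48 was the 1 gene lower without overlap, at 279, 329 and 308 against 2556, 491 and 605. Snrnp35, a protein of the U11 snRNP, was read 138, 0 and 159 times in CD93pos and never in CD93neg. Of 15 genes of snRNP assembly and import 2 were higher without overlap and 0 lower, against 18.3% and 1.92% of all tested genes. Without CD93neg replicate 1 the counts were 2 higher and 4 lower of 15, against 21.8% and 13.8% of all. The median log2 fold change of the list went from 1.88 to -0.044. Gemin5, the SMN complex subunit that binds snRNA, had 205, 30.1 and 88.0 normalized counts against 0, 0 and 3.13. For Gemin5 the log2 fold change was 5.69 (SE 1.45; limma adjusted p = 0.095).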

How the data were processed

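RNA sequencing of 6 libraries, 3 CD93pos and 3 CD93neg, was analysed; sample titles gave the groups. Per the submitters' processing notes, STAR, featureCounts (Subread 1.5.0-p1) and DESeq2 1.26 were used with GRCm38 or mm10. The release of the annotation and the strand mode were not given in the sources used here. Reads of overlapping or antisense genes therefore cannot be told apart. The first table the authors deposited holds a signal per gene and library, which is the count after division by that library's size factor. The second, deposited by the authors too, lists for each gene a mean signal, a log2 fold change with its error, a Wald score and p-values. Dividing by the step of 1 read gave whole reads for 100% of values within a tolerance of 0.001.

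The test was limma 3.58.1 (linear fit, empirical Bayes with a mean trend), two-sided, on log2(normalized count + 1). It took the 11805 genes whose normalized counts averaged 10 or more, with a threshold of 0.05 on the Benjamini-Hochberg adjusted p over all of them. This scale understates the change of low genes and gives large values where a library is at 0. edgeR 4.0.16 and DESeq2 1.42.0 in R 4.3.3 were alternatives on the recovered reads. Floors cover counting error only, and amplified reads are not independent molecules. The code was tested on simulated data. Positions and exon lengths came from GENCODE M21 on GRCm38, which held 69 of the 70 members. Other steps used Python 3.11.15 with pandas 2.3.3, and figures matplotlib 3.10.9.

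The members and lists were chosen with earlier results of these data known. Named genes were Rsrp1, Sf3b1, U2af1 and Srsf2, the 2 members of each family with the smallest p in each direction and the 2 highest per kb of exon, the 8 non-overlapping members with the smallest p in each direction, members unread in a group or not tested, and up to 3 genes of each list with the smallest p; 1 gene this rule names is not reported here. Alternatives covered the pseudocount (0.5, 10), the filter (none, 100), TMM and quantile scaling, the test, the replicate block and libraries left out; library quality weights were added after seeing the data.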

Additional observations from a re-analysis of the deposited data

How the results depend on the processing

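Calls depended on the libraries and scaling. As reported limma called 0 genes in all and 0 members. All genes called numbered 206 with a pseudocount of 0.5, 296 with TMM scaling and 707 with DESeq2, and 0 to 1880 with 1 library left out (774 without CD93pos replicate 2, 1 without CD93neg replicate 1 and 1880 without CD93neg replicate 3). Members called were 1 with DESeq2 (Snrpn) and 0 to 3 with 1 library left out: Snrpn without CD93pos replicate 2, and Hnrnpll, Prpf38a and Snrpn without CD93neg replicate 3. With CD93neg replicates 2 and 3 both left out, CD93neg rests on 1 library, assumed to vary like CD93pos: 7892 genes and 46 members were called, the median log2 fold change of members was 6.18, the ratio of summed CPM 1.76, and the lists had 19 (Prp19 and catalytic step), 6 (SR kinases), 12 (SR-related), 6 (Sm-like), 13 (branch point), 4 (exon junction), 7 (minor spliceosome), 20 (regulators), 10 (other snRNP) and 12 (assembly) calls. That setting called most of the 11805 tested genes, and 68 members were tested. In the order above the lists held 21, 7, 17, 7, 17, 5, 8, 27, 10 and 15 tested genes. The median log2 fold change of all tested genes was 5.70 there, beside 6.18 for members. Resting on 1 CD93neg library, these calls are not taken as results for members or lists. With 1 library left out the lists of Prp19 and catalytic step, SR kinases, minor spliceosome and assembly had 0 to 3, 0 to 1, 0 to 1 and 0 to 1 calls, and the assembly list had 1 with DESeq2.

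With the replicate block 24 genes and 4 members (Hnrnpa2b1, Hnrnpk, Hnrnpm and Rsrp1) were called, on 2 residual degrees of freedom. Same-numbered libraries correlated by 0.037, 0.019 and 0.061 in their deviations, so the pairing was taken as a number only, although each correlated best with its own number.

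Quantile normalization moved the median log2 fold change of all genes from 2.36 to 0.02 and that of members to 0.99, and split the genes at an unadjusted p under 0.05 into 689 higher and 916 lower, against 1391 and 45. Of the 59 genes named by rule 46 kept their sign in every setting. Genes named after their values were seen are not among the 59, and some of them turned too. Without CD93neg replicate 1 Prpf38b went from 1.75 to -1.35, Prpf39 from 0.02 to -2.92 and Snrpe from 2.01 to -0.10. Hnrnpab, Hnrnpd, Hnrnpl, Snrpb2, Snrpd2 and Snrpd3 stayed positive there. Prpf40b went from 3.37 to -1.28 with edgeR. The turns among the 59 were as follows. The log2 fold change turned with quantile normalization for Casc3 (-0.21), Hnrnpc (0.31) and Hnrnpdl (0.069); with TMM for Hnrnpc (0.25), Hnrnpdl (0.21) and U2af1 (0.063); with edgeR for Hnrnpc (0.077) and Hnrnpdl (0.18); with quality weights for Clk4 (-0.28), Hnrnpc (0.33), Prpf6 (-0.029) and Snrpc (0.51); and with CD93neg replicates 2 and 3 left out for Hnrnpdl (0.20), Hnrnpk (-0.22) and U2af1 (0.54). With 1 library left out it ranged from -0.50 to 4.10 for Clk4, -0.57 to 0.53 for Hnrnpc, -0.23 to 0.24 for Hnrnpdl, -0.32 to 4.40 for Lsm3, -0.25 to 4.32 for Lsm8, -0.17 to 5.06 for Sf3a3, -0.11 to 5.12 for Snrpa1, -1.55 to 0.50 for Snrpc, -0.57 to 0.18 for U2af1 and -0.38 to 3.85 for U2af2. The cause of these changes was not tested. CD93neg replicate 1 had 2832653 reads with 71.0% of tested genes unread and CD93neg replicate 3 had 3003095 with 16.0%; the part of depth was not tested.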
